A study of Mus musculus with 9 samples.

Results

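The 10 genes described here encode myeloid C-type lectin receptors: *Clec4a1*, *Clec4a2*, *Clec4a3*, *Clec4d*, *Clec4e*, *Clec4n*, *Clec5a*, *Clec7a*, *Clec10a* and *Clec12a*. They were taken by name from the 53801 Ensembl genes listed for each library, of which 25402 had a count in any library. Each of the 10 matched a single Ensembl gene, and all 10 had enough counts to be tested in each of the 3 comparisons. The libraries are bulk RNA-seq of monocytes/macrophages sorted by FACS as CD11c-Ly6G-CD11b+CD45high cells from 9-week-old male C57BL/6J mice. Distal middle cerebral artery occlusion (dMCAO) with ligation of the left common carotid artery, a model of permanent focal cerebral ischemia, was the injury. Sham blood (3 libraries) came from the blood of sham-operated mice and stroke blood (3 libraries) from mice bled 5 days after dMCAO, with 1 mouse per library. Stroke brain (3 libraries) came from the ischemic hemisphere 5 days after dMCAO, and each of these libraries is a pool of 5 mice, so that its spread is between pools and not between single animals. The day of sampling of the sham mice is not given in the sources used here. Brain cells were released by tissue dissociation and a density gradient and blood cells by a different gradient, so preparation and tissue cannot be told apart. Sham blood libraries held 18475118 to 21281769 counts in total, stroke blood libraries 18529600 to 21561271 and brain libraries 18757650 to 22623578. Even the lowest value of any of the 10 genes rested on 311 counts (*Clec4n*, stroke blood replicate 1).

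C-type lectin receptors are surface proteins with which myeloid cells sense sugars and lipids of microbes and material from damaged cells. The activating receptors among them signal through an ITAM or an ITAM-like motif, carried by the receptor itself or by the adaptor FcRγ (*Fcer1g*) or DAP12 (*Tyrobp*), to the kinase Syk and on through CARD9 to NF-κB. Inhibitory receptors carry an ITIM in their own tail, which recruits the phosphatases SHP-1 and SHP-2 (*Ptpn6* and *Ptpn11*). *Clec4n* (Dectin-2), *Clec4d* (MCL) and *Clec4e* (Mincle) use FcRγ, *Clec5a* (MDL-1) uses DAP12, and *Clec7a* (Dectin-1) carries its own motif and binds beta-glucans. *Clec4a2* (DCIR) and *Clec12a* (MICL) are ITIM receptors, *Clec4a1* and *Clec4a3* are close relatives of *Clec4a2*, and *Clec10a* (MGL1, CD301a) binds galactose-type sugars. Mincle recognizes SAP130, a nuclear protein let out by dying cells, and it has been studied in models of ischemic stroke.

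The sorted identity was checked with marker lists, in counts scaled to a library of 1000000 counts (CPM) after normalization by the trimmed mean of M-values (TMM). *Csf1r*, the receptor that monocytes and macrophages depend on, had 2608, 2722 and 2452 CPM in sham blood, 2207, 3273 and 2480.4 in stroke blood and 2568, 3085 and 3705 in the brain, and *Itgam*, which encodes CD11b, had 184, 164 and 198 CPM in sham blood, 220.5, 203 and 239 in stroke blood and 143, 136 and 151 in the brain. *Itgam* shares 3450 exon bases on its strand with a gene of at most 8 counts in any library. *Csf1r* shares 873 with a coding gene on the other strand that had at most 549 counts. Markers of other cells were present as well, and the gene said to lead a list had its highest mean over the 9 libraries, not in each group. All 10 microglia markers tested were higher in the brain than in stroke blood, and they summed to 173, 206 and 149 CPM in stroke blood and 1414, 2120.2 and 4082 CPM in the brain. *Sall1*, a transcription factor of microglia, had no count in any blood library and 6.68, 6.23 and 20.6 CPM in the brain. Brain replicate 3 was highest and brain replicate 1 lowest for this list. Dendritic cell markers were higher in the brain for 7 of 8 genes, led by *Cd209a*, and summed to 355, 271 and 114 CPM in sham blood, 132, 236 and 111 in stroke blood and 952, 725 and 709.8 in the brain; *Itgax*, which encodes the CD11c that the sort selected against, had 20.5, 11.8 and 12.2 CPM in stroke blood and 129, 74.1 and 80.7 in the brain. Classical monocyte markers were lower in the brain for 5 of 6 genes, led by *Chil3*, with sums of 16376, 18986 and 35530.0 CPM in sham blood, 16250.4, 15351 and 13872 in stroke blood and 5182, 6328 and 6338 in the brain.

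Neutrophil genes were mixed. Of 8 tested, 5 were higher in the brain and 1, *Mmp8*, was lower, with sums of 1039, 1220.1 and 3368 CPM in sham blood, 679.6, 1135 and 953 in stroke blood and 1260.0, 1045 and 1654 in the brain; *Mmp8* was the most abundant by its mean over the 9 libraries but not in the brain, and sham blood replicate 3 had the highest sum. *Ly6g*, which defines neutrophils and was sorted against, had 0.0497, 0.0931 and 0.664 CPM in sham blood, 0, 0 and 0.837 in stroke blood and 0.292, 0 and 0.610 in the brain. Platelet markers, led by *Ppbp*, were lower in the brain for 6 of 6 genes and summed to 13.8, 374 and 548 CPM in sham blood, 267, 328 and 254 in stroke blood and 3.07, 4.94 and 5.01 in the brain, and erythroid markers, led by *Hbb-bs*, were lower for 4 of 4 and summed to 944, 27332 and 25225 CPM in sham blood, 11895, 10939.8 and 15644 in stroke blood and 3.27, 9.84 and 11.7 in the brain. Sham blood replicate 1 was far below the other blood libraries for both of these lists. Of the remaining lists, 4 of 5 border macrophage genes tested, 1 of 7 non-classical monocyte genes (*Nr4a1*), 1 of 8 lymphocyte and NK genes (*Cd3d*) and 1 of 3 neural and vascular genes tested (*Ttr*) were higher in the brain, and of 8 monocyte/macrophage identity genes *Cd14* was higher and *Lyz2* lower. Of all 13189 genes tested 13.1% were DEGs higher and 7.86% DEGs lower in the brain, so that 1 of 7 or 1 of 8 lies near the background. The lymphocyte and NK count was 3 without stroke blood replicate 1 and 2 without brain replicate 1, and 1 non-classical gene was lower without stroke blood replicate 2 or brain replicate 1, as was 1 neural and vascular gene without stroke blood replicate 3 or brain replicate 1. *Nr4a1* had 319, 272 and 211 CPM in stroke blood and 3108, 690.0 and 864 in the brain, so that brain replicate 1 stood apart from the other two here as well. The border macrophage list summed to 92.3, 112 and 128 CPM in stroke blood and 83.8, 162 and 252 in the brain, with 2 genes higher and 1 lower without brain replicate 3. Most of the stroke blood sum was *Pf4*, also a platelet gene, which had 76.97, 86.0 and 106 CPM in stroke blood and 31.97, 53.1 and 74.1 in the brain. Unlike the 4 genes called higher, *Pf4* had lower values in the 3 brain libraries than in the 3 stroke blood libraries, a difference that did not pass the test (edgeR adjusted p = 0.0757). *Ttr*, with no count in any blood library, had 85.8, 13.9 and 41.1 CPM in the brain. The neural and vascular markers *Syt1*, *Aqp4* and *Cldn5* had at most 3 counts in any library. Genes including *Mrc1*, *Cd209a* and *Clec9a* stand both in a marker list and among the other lectin receptors below. In bulk samples, fewer cells of a type and less RNA per cell cannot be told apart, and the part of these marker lists in the changes of the lectin receptor genes was not tested.

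**Figure D1:**
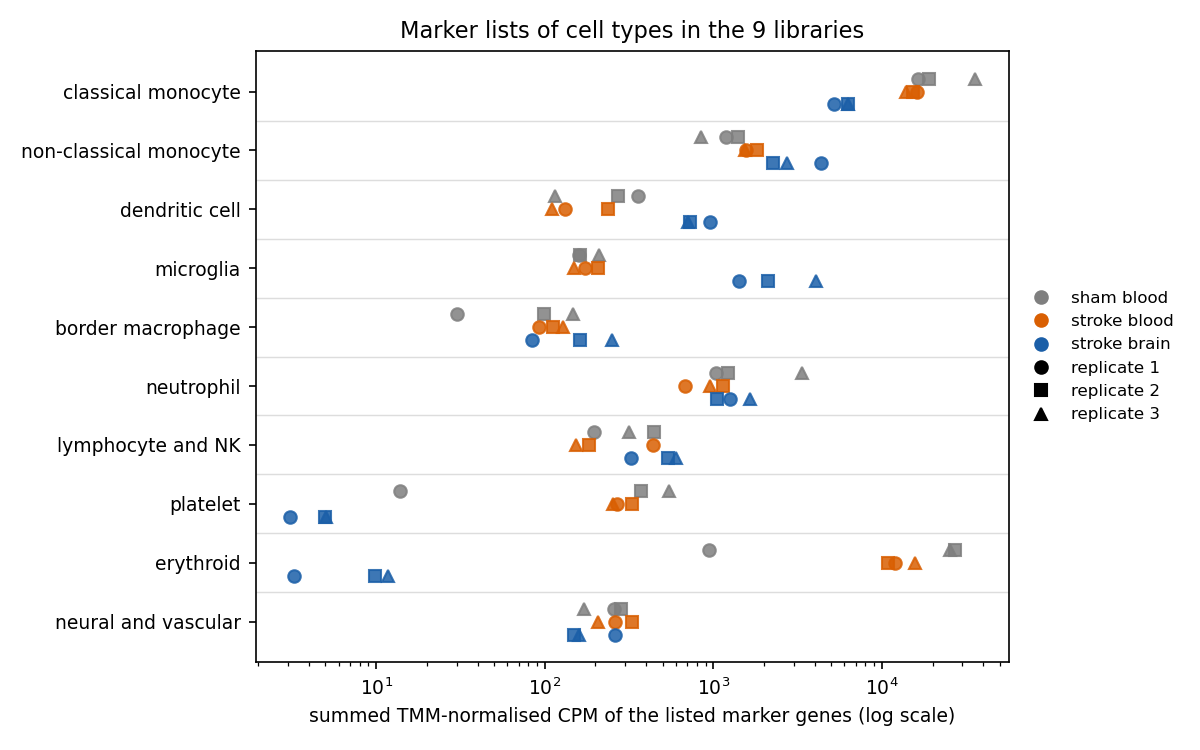
Summed TMM-normalised CPM of the genes of each marker list (x axis, log scale) in each of the 9 libraries; color gives the group and shape the replicate. Microglia and dendritic cell lists lie higher in the 3 brain libraries than in the 6 blood libraries, platelet and erythroid lists lie lower, and sham blood replicate 1 is low for platelet (13.8 CPM) and erythroid genes (944 CPM).

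Brain versus stroke blood asks which receptors differ in these cells between the ischemic brain and the circulation of mice with the same injury. The 3 receptors that use FcRγ, *Clec4n*, *Clec4d* and *Clec4e*, were upregulated in the brain, while *Clec4a1*, *Clec4a2*, *Clec4a3* and the ITIM receptor *Clec12a* were downregulated. *Clec5a*, *Clec7a* and *Clec10a* were not differentially expressed genes (DEGs), which were defined by an absolute log2 fold change above 1 with a Benjamini-Hochberg adjusted p below 0.05 in edgeR's quasi-likelihood test. Thus 3 of the 10 genes were upregulated DEGs, where 13.1% of all 13189 genes tested were, and 4 of the 10 were downregulated DEGs, where 7.86% of all genes were. The 3 and 4 DEGs were called in DESeq2 and in all 6 fits without 1 library. The median log2 fold change of the 10 genes was 0.12 and that of all genes tested was 0.06.

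**Figure D2:**
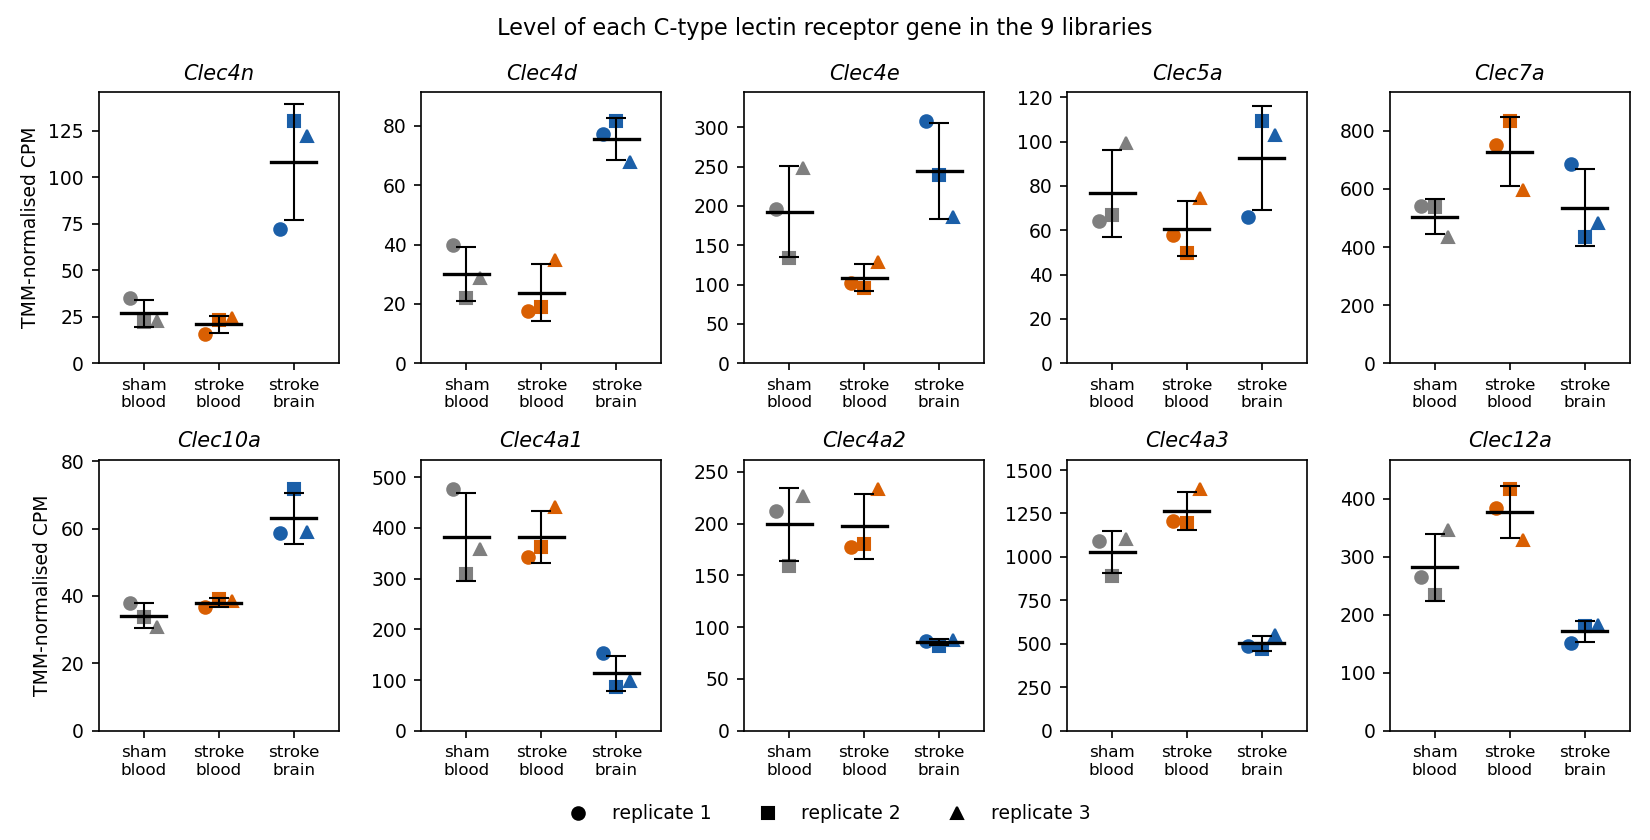
TMM-normalised CPM (y axis, linear, from 0) of each of the 10 genes in the 3 sham blood, 3 stroke blood and 3 stroke brain libraries; symbols are libraries, horizontal bars group means and error bars 1 SD (n = 3). The brain libraries lie above all blood libraries for *Clec4n*, *Clec4d* and *Clec10a* and below all of them for *Clec4a1*, *Clec4a2*, *Clec4a3* and *Clec12a*.

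*Clec4n* (ENSMUSG00000023349, chr6:123229843-123247021 of GRCm38, plus strand), the Dectin-2 gene, had 35.2, 22.4 and 22.8 CPM in the sham blood libraries, 15.8, 23.03 and 24.1 CPM in the stroke blood libraries and 72.4, 130.2 and 122 CPM in the brain libraries. All brain values lay above all blood values, and brain replicate 1 was the lowest of the brain libraries. With means of 20.99 ± 4.49 CPM in stroke blood and 108 ± 31.2 CPM in brain (SD, n = 3 each), it had the highest log2 fold change of the 10 genes, 2.40 (standard error of the fit, SE, 0.26, edgeR adjusted p = 0.000276). *Clec4d* (ENSMUSG00000030144, chr6:123262111-123275265, plus strand) encodes MCL, a receptor for mycobacterial glycolipid that pairs with Mincle. Its level was 39.9, 21.8 and 28.6 CPM in sham blood, 17.7, 19.0 and 34.8 CPM in stroke blood and 77.3, 81.6 and 67.7 CPM in the brain, again with no overlap between brain and blood. The rise from stroke blood, from 23.8 ± 9.54 to 75.5 ± 7.14 CPM (SD, n = 3 each), amounted to 1.70 on the log2 scale (SE 0.26, edgeR adjusted p = 0.00146).

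*Clec4e* (ENSMUSG00000030142, chr6:123281789-123289870, minus strand), the Mincle gene, had 196, 133 and 249 CPM in sham blood, 103, 95.2 and 128 CPM in stroke blood and 308, 239.5 and 186 CPM in the brain. Brain and stroke blood did not overlap, but sham blood replicates 1 and 3 lay above the lowest brain library. The log2 fold change from stroke blood to brain was 1.21 (SE 0.21, edgeR adjusted p = 0.00273). Within the brain group the receptors were not ordered alike: *Clec4e* was highest in replicate 1, where *Clec4n* was lowest, and the microglia list was lowest in that replicate too. Neutrophils also express these receptors, and their marker genes went both ways, with 5 of 8 tested higher and 1 lower in the brain than in stroke blood. Their median log2 fold change was 2.90, beside 0.06 for all genes tested. Those that rose most, named after their values were seen, were *Ltf* (log2 fold change 5.26), *Ngp* (4.97), *Camp* (4.69) and *S100a9* (3.54). *Ngp* had 0, 0.711 and 21.6 CPM in stroke blood and 192, 160 and 309 in the brain. *S100a8* had 42.1, 76.8 and 977 CPM in sham blood, 31.6, 13.8 and 48.99 in stroke blood and 233, 56.4 and 146 in the brain. *Mmp8* had 418, 475 and 459 CPM in stroke blood and 125, 110 and 145 in the brain. *Csf3r* was not a DEG (edgeR adjusted p = 0.568), and *Ly6g* was below 1 CPM in all 9 libraries. The part of neutrophil RNA in these values was not tested. Since brain replicate 1 stood apart, the fits without 1 library matter here: over all 6 the log2 fold change lay between 2.20 and 2.62 for *Clec4n*, 1.49 and 2.03 for *Clec4d* and 1.01 and 1.38 for *Clec4e*.

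Among the 4 genes that fell, *Clec4a3* (ENSMUSG00000043832, chr6:122952515-122969875, plus strand) was the most abundant, with 1090.0, 891 and 1103 CPM in sham blood, 1206, 1195 and 1393 in stroke blood and 488, 469.5 and 553 in the brain. Each brain value was below each blood value, and the log2 fold change from stroke blood was -1.29 (SE 0.15, edgeR adjusted p = 0.000301). *Clec4a1* (ENSMUSG00000049037, chr6:122921848-122934619, plus strand) had 477, 308 and 358 CPM in sham blood, 343, 362 and 440.2 in stroke blood and 153, 86.98 and 98.6 in the brain. This was the lowest log2 fold change of the 10 genes, -1.72 (SE 0.23, edgeR adjusted p = 0.000703), and the brain group lay wholly below both blood groups, with replicate 1 its highest library.

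*Clec4a2* (ENSMUSG00000030148, chr6:123106428-123143999, plus strand), which encodes the inhibitory receptor DCIR, was close to even within the brain group, at 87.1, 82.2 and 87.6 CPM, against 177, 181 and 234 CPM in stroke blood and 212, 159 and 227 CPM in sham blood (log2 fold change -1.17, SE 0.16, edgeR adjusted p = 0.000745, brain versus stroke blood). *Clec12a* (ENSMUSG00000053063, chr6:129342691-129365303, plus strand) encodes MICL, an inhibitory receptor that recognizes uric acid crystals. It had 265, 235 and 346 CPM in sham blood, 384, 417 and 329 in stroke blood and 151, 181 and 183 in the brain, so that brain and blood did not overlap. Its difference from stroke blood was -1.10 on the log2 scale (SE 0.16, edgeR adjusted p = 0.0012). With scaling by library size only, which moved the median log2 fold change of all genes from 0.06 to 0.22, *Clec12a* was at -0.95 and no longer a DEG, and the other 6 DEGs remained. Classical monocyte genes also fell, and their part in these 4 changes was not tested: *Ly6c2* had 3028, 2017 and 2941 CPM in stroke blood and 899.9, 868 and 727 in the brain.

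The other three genes were not DEGs between brain and stroke blood. *Clec10a* (ENSMUSG00000000318, chr11:70156197-70170834, plus strand) was the only one of the 10 outside chromosome 6; it had 38.03, 33.7 and 30.7 CPM in sham blood, 36.6, 39.1 and 38.4 CPM in stroke blood and 58.6, 71.9 and 58.8 CPM in the brain. All brain values were above all blood values and its edgeR adjusted p was 0.00834, but at 0.76 on the log2 scale (SE 0.17) it stayed under the fold threshold. *Clec5a* (ENSMUSG00000029915, chr6:40574894-40585821, minus strand), at 64.03, 66.7 and 99.2 CPM in sham blood, 57.97, 49.8 and 74.4 in stroke blood and 65.9, 109 and 103 in the brain, differed from stroke blood by 0.65 on the log2 scale (SE 0.22, edgeR adjusted p = 0.0554). Its brain replicate 1 lay within the blood range and the other two above it. *Clec7a* (ENSMUSG00000079293, chr6:129461591-129472779, minus strand), the Dectin-1 gene, typed as a polymorphic pseudogene in the annotation, had 540.5, 538 and 436 CPM in sham blood, 753, 834 and 598 in stroke blood and 686, 435 and 484 in the brain, and the groups overlapped (log2 fold change -0.41, SE 0.21, edgeR adjusted p = 0.174, brain versus stroke blood). *Clec7a* was highest in brain replicate 1, as *Clec4e* and *Clec4a1* were. With non-overlap as the criterion, 4 of the 10 genes were higher in all brain than in all stroke blood libraries, where 25% of all genes tested were, and 4 were lower, where 23.2% were.

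The start regions of genes from both directions are shown so that members that moved together can be read side by side. RefSeq promoter windows, 250 bases before to 50 bases after the start site (build GRCm38.p6), matched 8 of the 10 genes (not *Clec4n* or *Clec10a*), and 4 are printed 5′ to 3′ along the gene, *Clec4d* and *Clec4e* from the genes that rose and *Clec4a1* and *Clec12a* from those that fell. The *Clec12a* window belongs to a start site inside the gene as annotated, which begins at base 129342691. The same holds for *Clec4a2*, whose window (chr6:123122440-123122739) lies inside a gene that begins at base 123106428. Capitals mark matches on either strand to 4 motifs, GAGGAAG (PU.1, a transcription factor of myeloid cells), TGANTCA (AP-1), TTGCNNAA (C/EBP) and GGGANTTTC (NF-κB), none of which overlap one another here.
Clec4d (chr6:123261857-123262156, plus strand): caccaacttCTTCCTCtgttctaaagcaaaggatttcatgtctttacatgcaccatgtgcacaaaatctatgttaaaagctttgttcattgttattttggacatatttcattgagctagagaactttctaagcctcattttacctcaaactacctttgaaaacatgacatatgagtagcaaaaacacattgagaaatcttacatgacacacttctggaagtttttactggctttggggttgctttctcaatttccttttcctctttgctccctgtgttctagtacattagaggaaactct
Clec4e (chr6:123289822-123290121, minus strand): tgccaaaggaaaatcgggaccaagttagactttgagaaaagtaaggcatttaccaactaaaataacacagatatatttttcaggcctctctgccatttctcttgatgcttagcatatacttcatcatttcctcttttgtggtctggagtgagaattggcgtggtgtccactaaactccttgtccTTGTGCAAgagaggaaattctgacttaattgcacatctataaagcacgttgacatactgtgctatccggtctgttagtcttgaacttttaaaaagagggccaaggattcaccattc
Clec4a1 (chr6:122921598-122921897, plus strand): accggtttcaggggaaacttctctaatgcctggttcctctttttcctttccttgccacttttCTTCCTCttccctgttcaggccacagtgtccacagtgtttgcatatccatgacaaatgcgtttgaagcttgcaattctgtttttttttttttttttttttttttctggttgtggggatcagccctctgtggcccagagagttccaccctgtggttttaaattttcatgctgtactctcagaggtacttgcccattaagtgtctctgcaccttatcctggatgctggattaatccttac
Clec12a (chr6:129349994-129350293, plus strand): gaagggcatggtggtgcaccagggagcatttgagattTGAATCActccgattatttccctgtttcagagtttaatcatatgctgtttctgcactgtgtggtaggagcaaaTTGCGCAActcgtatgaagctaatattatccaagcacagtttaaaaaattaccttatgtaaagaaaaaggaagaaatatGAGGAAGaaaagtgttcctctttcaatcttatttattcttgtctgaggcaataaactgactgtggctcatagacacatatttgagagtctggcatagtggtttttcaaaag

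*Clec4d* and *Clec4a1*, which moved in opposite directions, each held the letters of PU.1 once, on the opposite strand. *Clec12a* held PU.1, AP-1 and C/EBP once each, and *Clec4e* held C/EBP on the opposite strand. In the windows not printed, *Clec5a* held PU.1 at 2 places and *Clec4a2* AP-1 once, and *Clec4a3* and *Clec7a* held none of the 4. No window of the 8 genes held the NF-κB letters. Of all 32851 windows of this length, 13.6% held PU.1, 7.81% AP-1, 10.8% C/EBP and 1.11% NF-κB. A match of letters is a description and not a binding site.

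Brain versus sham blood compares the same brain libraries with mice without dMCAO, so the comparisons share samples and their values are given side by side. *Clec4n* (log2 fold change 2.01, SE 0.28, edgeR adjusted p = 0.00396) and *Clec4d* (log2 fold change 1.32, SE 0.23, edgeR adjusted p = 0.00844) were upregulated here too. *Clec4e*, in contrast, stood at 0.34 (SE 0.26, edgeR adjusted p = 0.401) against sham blood, with overlapping groups. *Clec4a1* (-1.76, SE 0.26, edgeR adjusted p = 0.00473), *Clec4a2* (-1.22, SE 0.16, edgeR adjusted p = 0.00338) and *Clec4a3* (-1.03, SE 0.15, edgeR adjusted p = 0.00397) were downregulated. The 2 upregulated genes compare with 9.75% of the 13020 genes tested and the 3 downregulated genes with 3.67%. *Clec12a* was lower by less than 2-fold (log2 fold change -0.72, SE 0.18, edgeR adjusted p = 0.0275) and *Clec10a* higher by less than 2-fold (log2 fold change 0.88, SE 0.16, edgeR adjusted p = 0.0101). *Clec5a* had 0.27 (edgeR adjusted p = 0.476) and *Clec7a* 0.08 (edgeR adjusted p = 0.803). The call of *Clec4a3* sat at the fold threshold: it was lost at -0.99 without sham blood replicate 1, -0.99 without sham blood replicate 3, -0.99 without brain replicate 2 and -0.91 with scaling by library size only. With that scaling, which moved the median of all genes from 0.01 to 0.13, *Clec10a* reached 1.00 and was a DEG.

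**Figure D3:**
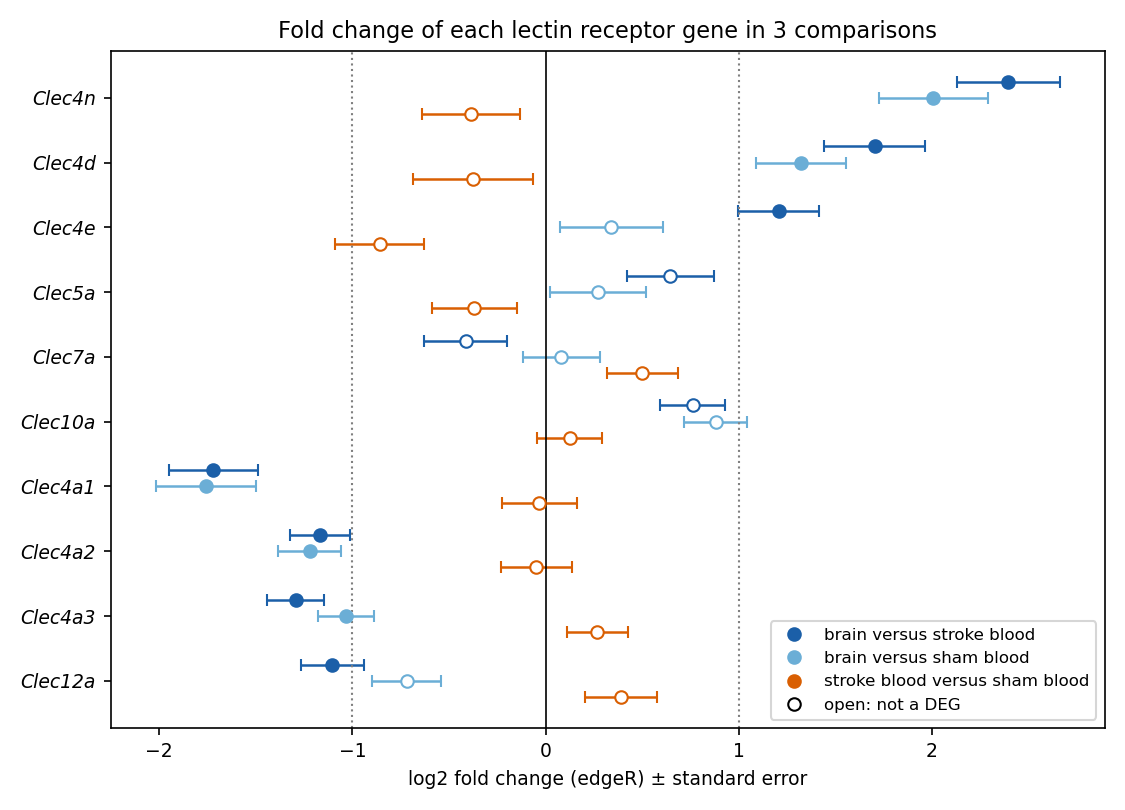
Log2 fold change of each gene from edgeR (x axis) with its standard error (bars) in the 3 comparisons, which share libraries; filled points are DEGs, open points are not, and dotted lines mark the fold threshold. *Clec4n* and *Clec4d* are filled on the right and *Clec4a1*, *Clec4a2* and *Clec4a3* on the left in both brain comparisons, *Clec4e* and *Clec12a* in brain versus stroke blood alone, and no gene is filled in stroke blood versus sham blood.

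Stroke blood versus sham blood asks what the injury changed in circulating cells. None of the 10 genes was a DEG in edgeR or in DESeq2, and 2 of them (*Clec4e* and *Clec7a*) had an unadjusted p below 0.05 in edgeR. *Clec4e* was lower in every stroke blood library than in every sham blood library, 109 ± 17.4 against 193 ± 57.8 CPM (SD, n = 3 each), which is -0.86 on the log2 scale (SE 0.23, edgeR adjusted p = 0.285). *Clec7a* had 0.50 (SE 0.18, edgeR adjusted p = 0.341) and *Clec4a3* 0.27 (SE 0.16, edgeR adjusted p = 0.504), both higher in all stroke blood libraries. These non-overlaps, 2 genes higher and 1 lower of 10, lie beside 9.77% and 8.29% of all 12664 genes tested. The log2 fold changes of the other seven lay between -0.39 (*Clec4n*) and 0.39 (*Clec12a*). Of all genes, 1 was a DEG in edgeR (0.0079%), *Serpinb10*, a protease inhibitor gene named after its value was seen (log2 fold change 1.84, edgeR adjusted p = 0.0231), with 1581 genes at an unadjusted p below 0.05; DESeq2 called 133. This call did not hold throughout: 4 of the 6 fits without 1 library gave 0 DEGs in edgeR, and a fit with a replicate block gave 0 upregulated DEGs and 1 downregulated. Sham blood replicate 3 had the highest *Clec4e* and *Clec12a* of its group and the highest neutrophil and classical monocyte sums of the 9 libraries, and the part of these cells in the values was not tested. Lymphocyte and NK genes held 0 DEGs of 8 in edgeR; unadjusted, 5 had a p below 0.05, and DESeq2 called 5 lower in stroke blood. Their median log2 fold change was -1.59, beside -0.03 for all genes, and their sums were 195, 443 and 318 CPM in sham blood and 439, 183 and 154 in stroke blood, which overlap. The medians were -1.32 for 9 neutrophil genes, 4 of them at an unadjusted p below 0.05 in edgeR, and 0.58 for 7 non-classical monocyte genes, also with 4. The part of these lists in the receptor values was not tested. Over the 6 fits without 1 library the log2 fold change of *Clec4e* lay between -1.07 and -0.65.

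The order of the 3 groups can be read from these tests. For *Clec4n* and *Clec4d* the order was brain, sham blood and stroke blood, and for *Clec10a* brain, stroke blood and sham blood, with the blood groups not told apart by edgeR and, for *Clec10a*, brain differences under the fold threshold. *Clec4e* ran from brain through sham blood to stroke blood, and of these steps neither that from brain to sham blood nor that from sham to stroke blood passed the test. *Clec4a1*, *Clec4a2*, *Clec4a3* and *Clec12a* were lowest in the brain, *Clec12a* by less than 2-fold against sham blood, and their blood groups were not told apart. A test that is not passed does not show that groups are equal. For *Clec5a* (brain, sham blood, stroke blood) and *Clec7a* (stroke blood, brain, sham blood) no step passed.

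Levels of different genes were compared per kilobase of exon. By this measure *Clec4a3* led in all 3 groups, with 775 ± 89.7 CPM per kilobase in sham blood, 953 ± 83.9 in stroke blood and 379.6 ± 33.02 in the brain (SD, n = 3 each). In sham blood *Clec4a1* (245 ± 55.8 CPM per kilobase) and *Clec7a* (191 ± 22.7) followed, then *Clec4a2* (68.1), *Clec12a* (50.96) and *Clec4e* (38.8), and the other four lay between 11.8 (*Clec10a*) and 19.96 (*Clec5a*). In stroke blood *Clec7a* (276 ± 45.4 CPM per kilobase) and *Clec4a1* (245 ± 33.2) followed, within each other's spread. *Clec12a* (68.1 ± 8.10) and *Clec4a2* (67.4 ± 10.8) came next, also within their spread, then *Clec4e* (21.9 ± 3.50), and *Clec5a*, *Clec4d*, *Clec4n* and *Clec10a* lay between 13.1 and 15.8. In the brain *Clec7a* ranked 2 at 203 ± 50.3 CPM per kilobase, and *Clec4n*, ranked 9 in stroke blood, ranked 3 at 76.2 ± 21.99, beside *Clec4a1* at 72.5 ± 22.7. *Clec4e* (49.3 ± 12.3) and *Clec4d* (47.2 ± 4.46) were level within their spread, and their order turned with the length of the longest transcript (50.9 and 57.1). *Clec12a*, *Clec4a2*, *Clec5a* and *Clec10a* followed, from 31.05 to 21.8. The place of *Clec12a* depended on the length used: by its longest transcript it had 87.1 CPM per kilobase in sham blood, 116 in stroke blood and 53.1 in the brain, above *Clec4a2* in each group and between *Clec4d* and *Clec4e* in the brain.

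Summed over the 10 genes, the level per kilobase was 1572, 1255 and 1487 in sham blood, 1615, 1660.2 and 1796 in stroke blood and 982, 879.8 and 939 in the brain, so the brain libraries held less receptor transcript of this kind in all. The FcRγ receptors *Clec4d*, *Clec4e* and *Clec4n* together made up 5.68, 4.48 and 5.65% of this sum in sham blood, 2.66, 2.85 and 3.60% in stroke blood and 16.4, 21.7 and 17.6% in the brain. The 3 *Clec4a* genes made up 76.3, 73.6 and 76.6% in sham blood, 73.7, 71.97 and 78.7% in stroke blood and 50.5, 49.8 and 54.3% in the brain. In both cases the brain libraries lay apart from all 6 blood libraries, a description without a test because the genes were grouped after their changes were known. *Clec4a3* alone held 56.3 ± 2.10% in stroke blood and 40.7 ± 3.47% in the brain (SD, n = 3 each), and *Clec7a*, which was not a DEG, 16.4 ± 3.38% and 21.6 ± 4.24%.

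**Figure D4:**
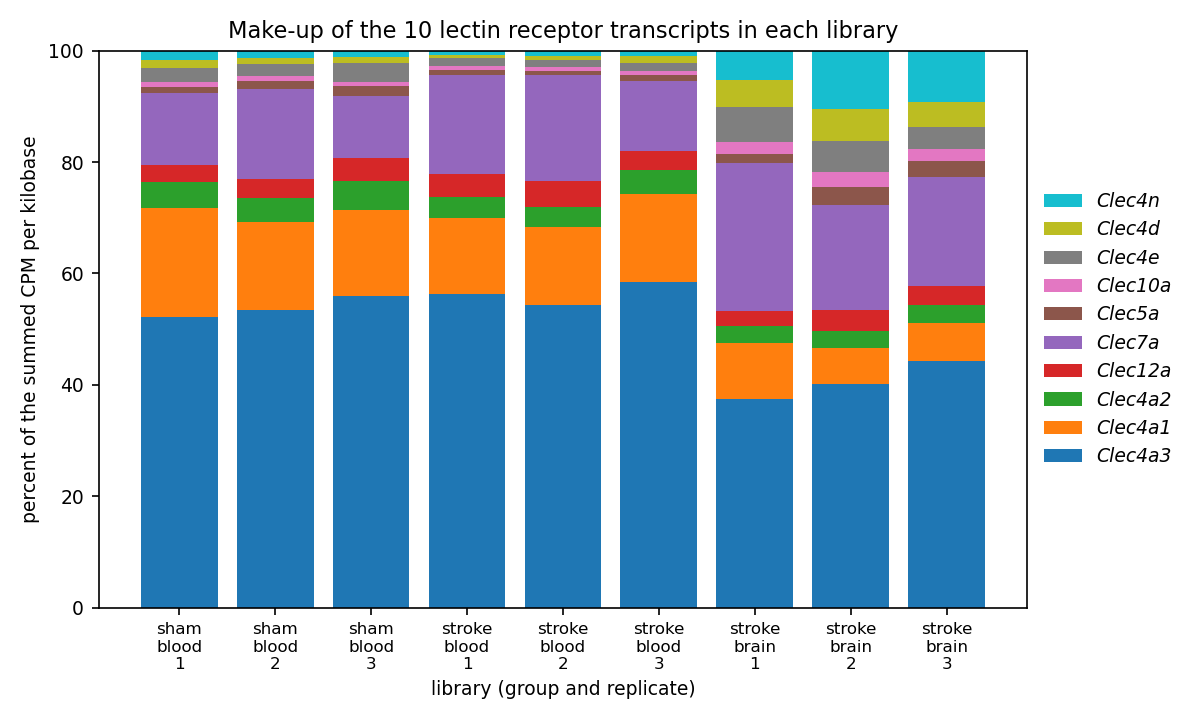
Percent of the summed CPM per kilobase of exon (y axis, 0 to 100) taken by each of the 10 genes in each library (x axis). *Clec4a3* (lowest band) is the widest band in every library, and the upper bands of *Clec4n*, *Clec4d* and *Clec4e* together reach 16.4, 21.7 and 17.6% in the 3 brain libraries.

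By position along the chromosome, the *Clec4* genes of the 10 that fell and those that rose lay apart. The 10 genes were chosen by name with earlier results of these data known, so this is a description without a test. Of the 10 genes, 9 lie on chromosome 6, and 6 of these fall in a cluster of 9 coding genes that spans 368 kb, chr6:122921848-123289870. The genes run in the order *Clec4a1*, *Clec4a3*, *Clec4a4*, *Clec4b1*, *Clec4a2*, *Clec4b2*, *Clec4n*, *Clec4d* and *Clec4e*. The 3 that fell occupy the first part, and the 3 that rose lie side by side at the other end, within 60.03 kb, with *Clec4d* and *Clec4e* ending 6523 bases apart on opposite strands. Of the cluster genes outside the 10, *Clec4b1* had 25.4 ± 3.41 CPM in stroke blood and 19.7 ± 2.50 CPM in the brain (SD, n = 3 each; log2 fold change -0.33, SE 0.20, edgeR adjusted p = 0.24), *Clec4a4* stayed under 3 CPM (log2 fold change -0.13, SE 0.57, edgeR adjusted p = 0.884; its sign turned under library size scaling), and *Clec4b2*, with at most 7 counts in any library, was not tested. The nearest coding genes tested outside the cluster were *Necap1*, at 0.69 (SE 0.17, edgeR adjusted p = 0.0136), and *Vmn2r26*, with at most 18 counts in any library (0.36, SE 0.67, edgeR adjusted p = 0.716). These neighbours were named after their values were seen.

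**Figure D5:**
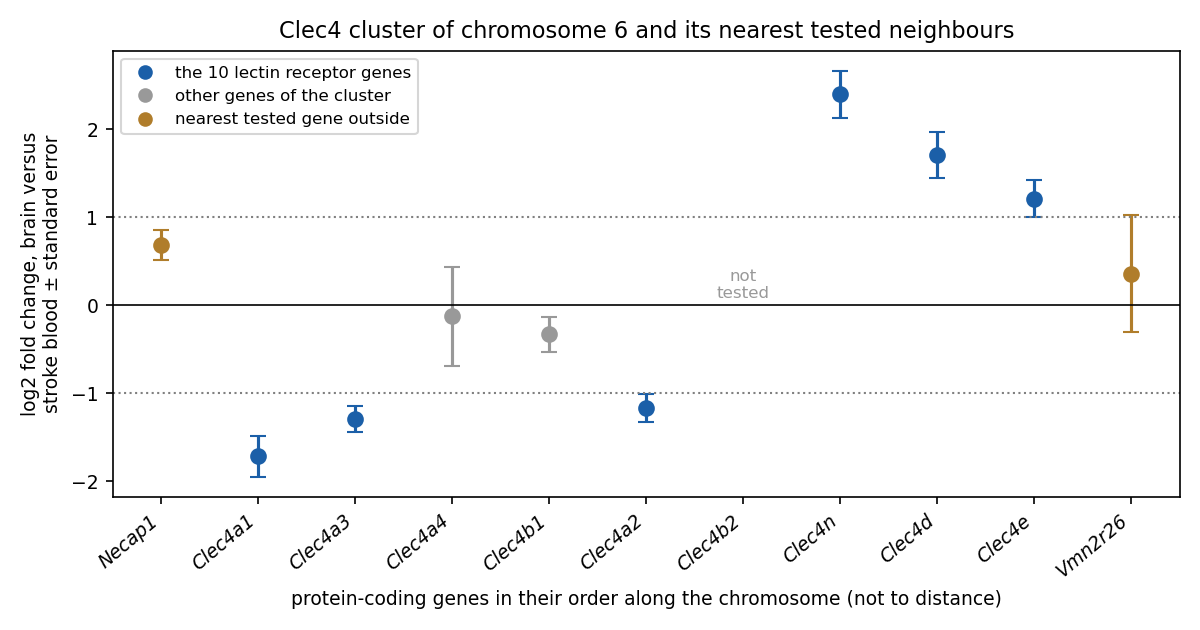
Log2 fold change, brain versus stroke blood, with its standard error (y axis) for the coding genes of the *Clec4* cluster in their order along chromosome 6 (x axis, order only) and the nearest tested coding gene on each side. *Clec4a1*, *Clec4a3* and *Clec4a2* lie below the lower dotted line and *Clec4n*, *Clec4d* and *Clec4e* above the upper one, the dotted lines being the fold threshold; none of these directions turned under the other scalings tried.

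Farther along the chromosome, *Clec12a* and *Clec7a* bound a stretch of 130.1 kb that also holds *Clec12b*, *Clec1b*, *Clec9a* and *Clec1a*. Exons of the 10 genes overlapped those of no other annotated gene. Stretches of 75 bases, the read length, were compared with all other transcripts of the annotation: 3.24% of those of *Clec4a2* were also in *Clec4a4* or *Clec4b1* and 4.44% of those of *Clec10a* in *Mgl2*, and 0 of those of the other eight genes were shared. Reads from the shared stretches could be split or dropped, so the values of *Clec4a2* and *Clec10a* are uncertain to that extent.

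Downstream, the adaptor FcRγ was not upregulated with the receptors that use it. *Fcer1g*, the adaptor of *Clec4n*, *Clec4d* and *Clec4e*, had 3649, 2947 and 4319 CPM in stroke blood and 1904, 2222 and 2250.0 CPM in the brain, lower by less than 2-fold (log2 fold change -0.74, SE 0.17, edgeR adjusted p = 0.0108). *Tyrobp*, which encodes DAP12, had 4376, 3833 and 4424 CPM and 2103, 2699 and 2522 CPM (log2 fold change -0.75, SE 0.16, edgeR adjusted p = 0.00631), and *Hcst*, which encodes DAP10, another partner of MDL-1, was a downregulated DEG (log2 fold change -1.06, SE 0.18, edgeR adjusted p = 0.00224), at -0.91 and no DEG when scaled by library size only. *Syk* had 229, 273 and 256 CPM in stroke blood and 305, 169 and 181 CPM in the brain (log2 fold change -0.18, SE 0.23, edgeR adjusted p = 0.601), with brain replicate 1 above the other two. Of the 13 adaptor and proximal kinase genes, 1 was upregulated (*Vav3*, log2 fold change 1.23, SE 0.21, edgeR adjusted p = 0.00249) and 1 downregulated (2 and 0 with scaling by library size only), beside 13.1% and 7.86% of all genes tested, and the median log2 fold change was -0.20, beside 0.06 for all genes tested. *Card9* was lower by less than 2-fold (log2 fold change -0.83, SE 0.17, edgeR adjusted p = 0.00568). A transcript on the other strand that shares 87 of its exon bases had at most 4 counts in any library. Among the 15 genes of the CARD9 module and NF-κB, 2 were upregulated, a share close to the 13.1% of all genes tested, and 0 downregulated. The 2 were *Map3k7*, which encodes the kinase TAK1 (log2 fold change 1.67, SE 0.20, edgeR adjusted p = 0.000385), and *Rela*, which encodes the p65 subunit (log2 fold change 1.14, SE 0.15, edgeR adjusted p = 0.000687). Upregulated genes of this list numbered 4 with scaling by library size only and 1 with upper-quartile scaling, where *Rela* was at 0.99. The median was 0.33, beside 0.06 for all genes. Sham blood had 5.52, 47.1 and 21.1 CPM of *Map3k7* and 114, 213 and 166 CPM of *Rela*. In brain versus sham blood neither was a DEG (edgeR adjusted p = 0.384 for *Map3k7* and 0.151 for *Rela*). *Fcer1g* (log2 fold change -0.42, edgeR adjusted p = 0.0888) and *Tyrobp* (-0.48, edgeR adjusted p = 0.0526) did not pass the test against sham blood. Nor did *Card9* (-0.32, edgeR adjusted p = 0.435), which had 26.6, 32.4 and 54.1 CPM in sham blood and 29.8, 32.0 and 29.2 in the brain. In that comparison the adaptor and proximal kinase list held 0 DEGs, and 1 other gene of the 15 of the CARD9 list was upregulated. Of all 13020 genes tested there, 9.75% were upregulated and 3.67% downregulated. Between brain and stroke blood, the ITIM effectors *Ptpn6*, *Ptpn11* and *Inpp5d* held 0 DEGs in edgeR and in DESeq2. At an unadjusted p below 0.05 in edgeR there was 1 of these 3, beside 5563 of all 13189 genes tested. The 1 gene was *Inpp5d*, named after its value was seen. It was higher in the brain with an edgeR adjusted p of 0.0122 but stayed under the fold threshold.

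Cytokine and early response genes that Syk signaling is known to induce were mostly higher in the brain than in stroke blood. Of 15 listed genes 13 were tested, 9 were upregulated and 0 downregulated, with 10 at an unadjusted p below 0.05 in edgeR, and DESeq2 called 11 up and 1 down. In 4 of the 6 fits without 1 library, those without stroke blood replicate 2 or any of the brain replicates, 1 gene was downregulated. Of all 13189 genes tested, 13.1% were upregulated, 7.86% downregulated and 5563 at an unadjusted p below 0.05. The median log2 fold change of the 13 genes was 3.12, beside 0.06 for all genes tested. *Il1b*, which encodes interleukin-1β, had 60.5, 95.05 and 140.3 CPM in stroke blood and 1560.1, 1564 and 1262 CPM in the brain (log2 fold change 3.93, SE 0.30, edgeR adjusted p = 3.83e-05). *Egr1*, an early response transcription factor gene, had 183, 11.5 and 7.52 CPM in sham blood, 20.8, 16.6 and 19.7 in stroke blood and 325, 548 and 668 in the brain (log2 fold change 4.79, SE 0.28, edgeR adjusted p = 1.14e-05). Sham blood replicate 1 stood far above the other two of its group. The chemokine genes *Ccl4* (3.55, SE 0.53, edgeR adjusted p = 0.0013), *Ccl3* (3.12, SE 0.35, edgeR adjusted p = 0.000282) and *Cxcl2* (2.80, SE 0.49, edgeR adjusted p = 0.0028) were upregulated too. For these genes too, tissue and cell preparation cannot be told apart, since brain cells were dissociated and blood cells were not. The 4 genes of self ligands (*Sap130*, *Lgals9*, *Vim* and *Anxa5*) held 0 DEGs in edgeR and in DESeq2, with 1 at an unadjusted p below 0.05 in edgeR, and their median was -0.09, beside 0.06 for all genes. The 1 gene was *Vim*, named after its value was seen. It was lower in the brain with an edgeR adjusted p of 0.0365 but stayed under the fold threshold. Between stroke blood and sham blood, 0 genes of these 5 lists were DEGs in edgeR or in DESeq2. At an unadjusted p below 0.05 in edgeR there were 2 of 13 adaptor genes and 2 of 15 CARD9 module genes. The target genes held 1 of 11 tested, and each of the other lists held 0. These counts lie beside 1581 of all 12664 genes tested and near that share.

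The genes whose pattern lay nearest to each receptor gene over the 9 libraries were found among 8171 others, by the root mean square difference of log2(CPM + 1) values centered on each gene's mean, given in parentheses. Nearest to *Clec4n* were *Ptafr* (0.19), which encodes the receptor of platelet-activating factor, and *Gas2l3* (0.19); to *Clec4d*, *Tmem273* (0.26) and *Vps54* (0.27); and to *Clec4e*, *Mcm4* (0.20) and *Abtb2* (0.27). Nearest to *Clec4a3* were *Cybb* (0.11), a subunit gene of the NADPH oxidase, and *Alox5ap* (0.13), which encodes the 5-lipoxygenase activating protein. *Clec4a2* had *Clec4a3* (0.15) and *Gm5150* (0.15) as its nearest, the only case in which another of the 10 genes was among them. For *Clec4a1* they were *Lrrc25* (0.12) and *Borcs6* (0.19), and for *Clec12a* *Leng9* (0.12) and *Etfrf1* (0.13). *Clec5a* had *5830432E09Rik* (0.17) and *Lpxn* (0.20), *Clec7a* *Nostrin* (0.16) and *Samsn1* (0.16), and *Clec10a* *Rrp15* (0.10) and *Syngr2* (0.11). Of the 10 genes, the closest to *Clec4n* was *Clec4d*, at rank 36 of the 8171, and the closest to *Clec4d* was *Clec4n*, at rank 89, with a difference of 0.42. To *Clec4e* it was *Clec5a*, at rank 520, with 0.44. All points share the same libraries.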

How the data were processed

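Per the labels and the study's methods, RNA of sorted cells was amplified with SMART-Seq HT, made into Nextera XT libraries and sequenced in pairs on an Illumina NextSeq. The authors aligned the reads to GRCm38 with HISAT2 and deposited raw counts per Ensembl gene from HTSeq; versions, annotation, strand setting and the handling of reads with more than one match are not given in the sources used here. From these counts edgeR 4.0.16 (R 4.3.3; tables and figures in Python 3.11.15) tested the groups in pairs after TMM scaling (factors over the 9 libraries 0.902 to 1.09) and filterByExpr, with Benjamini-Hochberg adjustment over all genes tested; the code was tested on simulated data. CPM are TMM-normalised over the 9 libraries. Alternatives were DESeq2 1.42.0, other filters, scalings and thresholds, a single fit, a replicate block and each library left out. Symbols, exons and transcripts came from GENCODE M21 (GRCm38), in which 53706 of 53801 identifiers were found. Named were the 10 genes, the list members that were DEGs (at most 5 a list by mean CPM), 4 adaptor genes (*Fcer1g*, *Tyrobp*, *Syk* and *Card9*), the 2 nearest genes of each receptor gene, defining markers of cell types, and genes said to be chosen after their values were seen. The 10 genes and the lists were chosen with earlier results of these data known. Spread within groups exceeded counting noise, and replicate numbers do not pair the animals. P-values of the brain group rest on 3 pools.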

Additional observations from a re-analysis of the deposited data

How the results depend on the processing

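Of the fits that left out 1 library, 60 of 60 gene results of the 10 genes kept direction and call in brain versus stroke blood, 55 of 60 in brain versus sham blood and 56 of 60 in stroke versus sham blood; under the other alternatives these were 79, 78 and 77 of 80. DEGs numbered 2771 in brain versus stroke blood, 1793 at an adjusted p of 0.01 and 2258 to 3014 with a library left out. In brain versus sham blood they were 1748, 792 at 0.01 and 1146 (without sham blood replicate 3) to 1883 with a library left out. In stroke versus sham blood the 1 DEG compared with 0 at 0.01, 133 in DESeq2, 160 without a filter on low counts, and 0 to 16 (without sham blood replicate 1) with a library left out; the cause was not tested. The stricter threshold gives fewer by construction. Among the 10 genes and the members of the lists named with log2 fold changes, the signs that turned were those of 4 small values, none of them a DEG in edgeR; *Necap1*, *Vmn2r26* and *Serpinb10* were not followed through the alternatives. In stroke versus sham blood, *Clec4a1* was at 0.038 with upper-quartile scaling and 0.0020 in a single fit, and *Clec4a2* at 0.024 with upper-quartile scaling; with a library left out, *Clec4a1* ranged from -0.17 to 0.16, *Clec4a2* from -0.19 to 0.042, *Clec7a* in brain versus sham blood from -0.14 to 0.21 and *Clec4a4* in brain versus stroke blood from -0.62 to 0.20. *Clec4a4* was at 0.0253 with library size scaling. Upper-quartile scaling moved the median of all genes in brain versus stroke blood by -0.15 and library size scaling by 0.15. With the replicate block, DEGs numbered 2634 in brain versus stroke blood, 1571 in brain versus sham blood and 1 in stroke versus sham blood, which was downregulated and so not the upregulated *Serpinb10*, with 3 up and 4 down among the 10 genes in the first, and it changed no call of the 10. With the length of the longest transcript, levels per kilobase of *Clec4a2*, *Clec10a*, *Clec12a*, *Clec4d* in the brain and *Clec7a* in sham blood moved by more than 1 SD. Same-numbered libraries of different groups did not deviate together (correlations from -0.10 to 0.10 across genes), and 3 libraries a group limit what any of these tests can call.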

Other observations

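Other C-type lectin receptors, from a list of 25 genes, moved in both directions as well. Of 19 tested in brain versus stroke blood, 7 were upregulated and 4 downregulated, beside 13.1% and 7.86% of all genes tested, and the median log2 fold change was 0.78, beside 0.06 for all genes. *Cd209a*, a DC-SIGN relative and a dendritic cell marker, had 269, 143 and 31.6 CPM in sham blood, 56.3, 142 and 53.0 in stroke blood and 479, 420.4 and 420.2 in the brain (log2 fold change 2.42, SE 0.37, edgeR adjusted p = 0.00139). It varied widely within both blood groups and little within the brain group. *Mrc1*, the mannose receptor gene and a border macrophage marker, had 6.32, 11.8 and 7.78 CPM in stroke blood and 29.6, 63.4 and 85.7 CPM in the brain (log2 fold change 2.81, SE 0.40, edgeR adjusted p = 0.000981). *Mgl2*, the sister gene of *Clec10a*, named after its values were seen, had 0.968, 4.83 and 3.11 CPM in stroke blood and 33.2, 40.1 and 39.6 CPM in the brain (log2 fold change 3.68, SE 0.47, edgeR adjusted p = 0.000567). *Cd302* (log2 fold change -1.43, SE 0.15, edgeR adjusted p = 0.000241) and *Clec2i* (log2 fold change -1.07, SE 0.22, edgeR adjusted p = 0.00592) fell, the latter with -0.99 and no call without stroke blood replicate 1 and -0.92 with library size scaling. Between stroke blood and sham blood, 0 of the 15 genes of this list that were tested were DEGs in edgeR or in DESeq2, with 1 at an unadjusted p below 0.05 in edgeR. Of all 12664 genes tested there, 1581 had such a p.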
